A study of Mus musculus with 8 samples.

Results

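The TNF ligand and receptor superfamily and the TRAF adaptors were described in neutrophils linked to B16 tumors, a mouse melanoma line. The members were the table's rows with symbols starting Tnfsf or Tnfrsf, or equal to Tnf, Lta, Ltb, Ltbr, Fas, Fasl, Cd27, Cd40, Cd70 or Traf1 to Traf6. This gave 34 genes of 18187: 10 ligands, 18 receptors and 6 TRAFs. The 18 receptors were grouped by role into 4 with a death domain, 3 of a decoy type and 11 that bind TRAFs. The study compared 3 libraries labelled aOX40 (replicates 1 to 3) with 5 labelled IgG (replicates 2 to 6), all from mice with B16 tumors. OX40 is the product of Tnfrsf4, so the treatment is named after a member of the family. The labels call the cells neutrophils but do not give the isolation, the strain, age or sex of the mice, or the dose and time of treatment. Nor is it stated whether the libraries are from different animals, and the p-values therefore reflect only how far these libraries spread, which could be technical.

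Ligands of this family are mostly membrane proteins that act as trimers, and some, such as TNF, are cut from the cell surface. Their receptors fall into those with an intracellular death domain, which can start caspase signalling, those that recruit TRAF proteins to activate NF-kB and MAP kinases, and decoys that bind ligand without a full signalling tail. In neutrophils, TNF primes the oxidative burst and adhesion, and the family also governs survival and death of these short-lived cells. Many of the costimulatory pairs, OX40 and 4-1BB among them, are best known from T cells.

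The promoters printed here belong to the receptors that passed the test and to Tnf and Ltb, whose CPM did not overlap between the groups, so that the start regions of these genes can be seen. They are the 250 bases before the start site, from RefSeq on GRCm38.p6, 5′ to 3′ on the gene's strand; 29 of the 34 members had an entry. Capitals mark matches, on either strand, to the NF-kB consensus, AP-1 (TGANTCA), GAS (TTCNNNGAA), the TATA box (TATAAA) or CRE (TGACGTCA). Tnfrsf9 has 2 entries, at chr4:150919905-150920154 and chr4:150927749-150927998, both on the plus strand. Ltb lies at chr17:35194257-35194506 on the plus strand, Tnf at chr17:35202008-35202257 on the minus strand, Tnfrsf1a at chr6:125349473-125349722 on the plus strand and Tnfrsf23 at chr7:143685876-143686125 on the minus strand. Tnfsf9 and Tnfrsf26 had no entry. Fasl, whose CPM did not overlap between the groups either, had an entry without any of these matches, and it is not printed.
Tnfrsf9, upstream start: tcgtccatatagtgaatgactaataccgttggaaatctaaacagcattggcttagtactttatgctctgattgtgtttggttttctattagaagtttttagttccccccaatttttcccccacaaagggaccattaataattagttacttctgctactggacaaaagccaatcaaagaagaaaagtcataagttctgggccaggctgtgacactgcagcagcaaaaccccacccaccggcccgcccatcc
Tnfrsf9, downstream start: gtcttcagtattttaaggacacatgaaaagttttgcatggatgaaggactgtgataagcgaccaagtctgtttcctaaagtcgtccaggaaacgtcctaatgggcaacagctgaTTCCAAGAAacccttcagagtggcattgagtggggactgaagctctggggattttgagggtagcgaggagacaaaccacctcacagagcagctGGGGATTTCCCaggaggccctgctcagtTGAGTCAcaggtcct
Ltb: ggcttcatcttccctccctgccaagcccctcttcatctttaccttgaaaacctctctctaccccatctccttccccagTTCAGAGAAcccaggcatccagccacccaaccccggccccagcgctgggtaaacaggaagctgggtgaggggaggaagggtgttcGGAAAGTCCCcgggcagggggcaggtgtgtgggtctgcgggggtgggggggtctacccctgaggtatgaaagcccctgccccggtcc
Tnf: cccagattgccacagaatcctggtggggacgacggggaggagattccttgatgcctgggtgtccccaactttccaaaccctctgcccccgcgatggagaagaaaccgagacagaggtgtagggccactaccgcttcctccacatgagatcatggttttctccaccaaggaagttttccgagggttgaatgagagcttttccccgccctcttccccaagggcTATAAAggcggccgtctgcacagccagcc
Tnfrsf1a: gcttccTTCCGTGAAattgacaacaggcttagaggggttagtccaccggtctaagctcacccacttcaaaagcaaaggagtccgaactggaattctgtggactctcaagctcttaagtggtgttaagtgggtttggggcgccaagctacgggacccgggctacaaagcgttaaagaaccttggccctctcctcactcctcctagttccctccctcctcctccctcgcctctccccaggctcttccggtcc
Tnfrsf23: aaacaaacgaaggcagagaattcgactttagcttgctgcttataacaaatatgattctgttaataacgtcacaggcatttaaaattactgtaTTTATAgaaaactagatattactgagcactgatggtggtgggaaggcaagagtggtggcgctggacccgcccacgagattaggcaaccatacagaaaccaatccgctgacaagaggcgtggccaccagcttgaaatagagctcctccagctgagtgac

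The downstream Tnfrsf9 promoter held 2 overlapping NF-kB matches that begin 43 and 42 bases before the start, an AP-1 match beginning 15 bases before it and a GAS match beginning 136 bases before it. Ltb held an NF-kB match on the other strand and a GAS match, beginning 87 and 172 bases before the start. Tnf held a TATA box beginning 29 bases before the start, and Tnfrsf1a a GAS match beginning 244 bases before it. Tnfrsf23 held a match to the TATA letters on the other strand only, beginning 158 bases before the start. Among the 31 promoters of members, 4 held the NF-kB consensus (12.9%, in Ltb, Tnfrsf8, Tnfrsf9 and Traf3), against 7.25% of all 32851 promoters of this length. AP-1 was in 6 (19.4%, against 6.75%), GAS in 7 (22.6%, against 7.02%), the TATA box in 4 (12.9%, against 12.4%) and CRE in 0 (against 1.55%). These are matches of letters, not binding sites, and no occupancy was measured.

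The libraries held 52.7 to 73.5 M counts (M, mega), and the aOX40 libraries were deeper, at 69.6 to 73.5 M against 52.7 to 63.2 M (exact two-sided permutation p = 0.0357, the smallest that 3 against 5 libraries allow). Depth and group therefore cannot be told apart in this series. The 10 neutrophil markers summed to 21219 to 24692 CPM in aOX40 and 17714 to 26011 CPM in IgG, so these markers were abundant in both groups. Of these, 1 was called higher, Mmp9 (log2 fold change 1.28, adjusted p = 0.0467, edgeR), with groups that overlapped, and 0 were called lower. The monocyte and macrophage markers, with 8 of 9 in the table, summed to 57.7 to 101 CPM in aOX40 and 8.35 to 38.3 CPM in IgG without overlap (exact permutation p = 0.0357). Most of that sum was Csf1r and Adgre1, and C1qb and C1qc did not exceed 1.81 and 1.89 CPM in any library. The 8 of 12 T cell markers in the table summed to 3.90 to 19.3 CPM in aOX40 and 1.54 to 11.3 CPM in IgG. The 5 of 8 dendritic cell markers in the table, mostly Itgax, summed to 11.3 to 20.2 CPM in aOX40 and 22.5 to 41.0 CPM in IgG, lower without overlap (exact permutation p = 0.0357). The 4 of 7 fibroblast markers summed to 1.22 to 4.04 CPM in aOX40 and 3.45 to 32.4 CPM in IgG (exact permutation p = 0.0714). In IgG most of that sum was Col1a1, which was called lower (log2 fold change -3.09, adjusted p = 0.0414, edgeR). Col3a1, Dcn and Lum reached at most 2.23, 1.06 and 0.412 CPM, overlapped between the groups and were not tested. The 2 of 7 B cell markers in the table, mostly Ighm, summed to 65.1 to 77.7 CPM in aOX40 and 30.1 to 251 CPM in IgG. The 7 melanoma markers summed to 4.59 to 9.07 and 5.77 to 15.4 CPM, and the 2 of 6 endothelial markers to 3.87 to 9.57 and 7.05 to 27.5 CPM. The only natural killer marker in the table, Gzma, was at 0 in 7 libraries.

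Across the family, members changed in both directions after aOX40. The ligand gene Tnfsf9, which encodes 4-1BBL, and the gene of its receptor, Tnfrsf9 (4-1BB), rose. Tnfrsf1a, the death-domain receptor TNFR1, and Tnfrsf23, a decoy receptor of the TRAIL system, fell. Of 34 members, 32 passed the filter on low counts, and 2 of these were called higher and 2 lower at an adjusted p below 0.05 (edgeR's quasi-likelihood test). The background over all 13278 genes tested was 2.64% called higher and 3.0% called lower, 5.65% in all, and the members' share was 12.5%. The groups did not overlap in 8 members, 25.0% of those tested, with 4 higher and 4 lower. Among all tested genes 16% did not overlap, 8.22% higher and 7.75% lower. The median log2 fold change was -0.06 over the tested members and 0.05 over all tested genes.

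Only the Tnfsf9 call held in most of the 18 alternative analyses, in 15 of them. Among the 18 was a block for replicate number, which compared the groups only through numbers 2 and 3 and could hardly call a gene. The adjusted p of Tnfrsf9 (0.0467), Tnfrsf1a (0.0486) and Tnfrsf23 (0.0484) lay just under the threshold, and their calls held in 4, 5 and 6 of the 18. With edgeR's default form of the quasi-likelihood fit, 320 genes were called in place of 750 (2.41% of those tested) and Tnfsf9 was the only member among them. Without aOX40 replicate 2 or without aOX40 replicate 3, 0 members were called by edgeR. At an unadjusted p below 0.05 there were 8 and 9 of 32 members, beside 2230 of 14111 and 2685 of 14167 genes tested. DESeq2 with all libraries called 6 members, where 12.3% of the genes it tested were called: these 4 together with Tnf and Tnfrsf26. With limma voom, 5.45% of genes were called and Tnfsf9 and Tnfrsf23 were the 2 members among them.

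**Figure D1:**
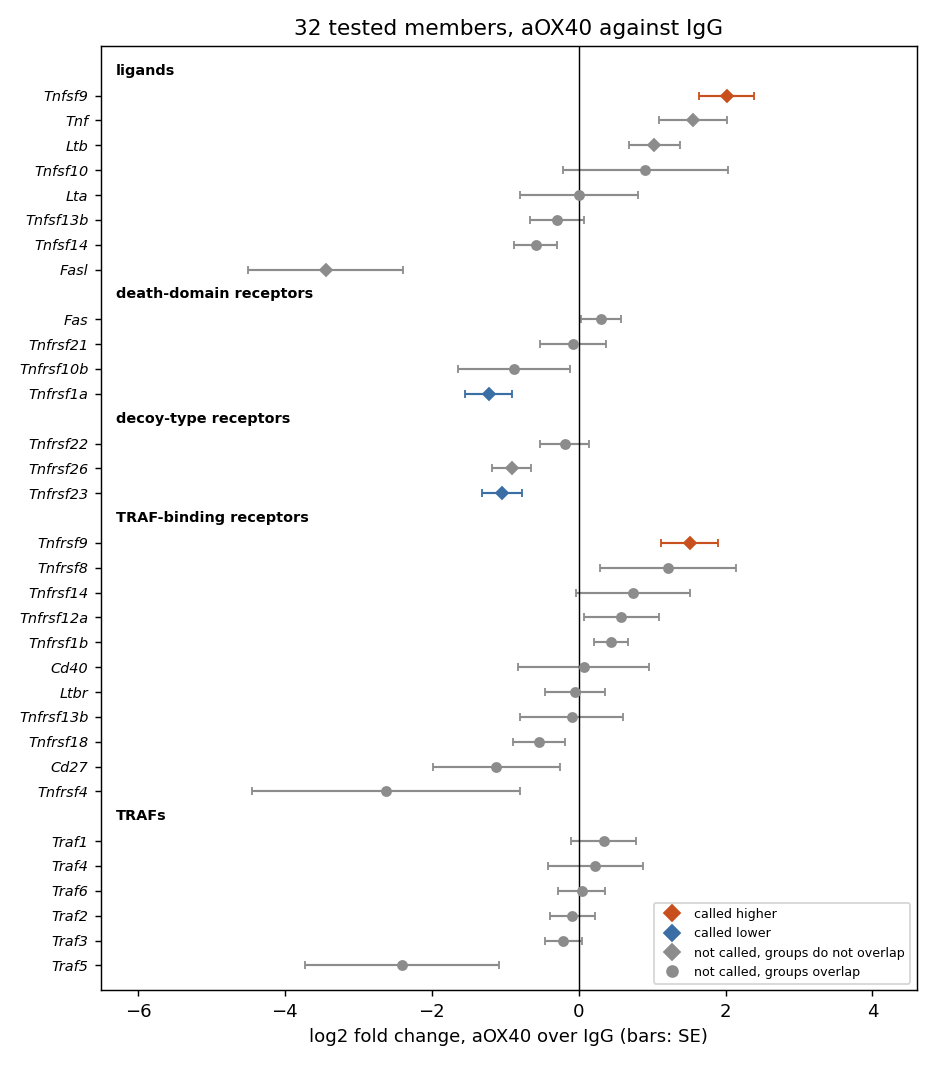
Log2 fold change of aOX40 over IgG for the 32 tested members by role, with bars for the standard error. Coloured points passed the test (Tnfsf9 and Tnfrsf9 higher, Tnfrsf1a and Tnfrsf23 lower), diamonds mark the 8 members whose groups did not overlap, and most other bars reach or lie near 0.

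The ligand genes held the largest increase in the family. Tnfsf9 is a costimulatory ligand of antigen-presenting cells and stood at 14.2, 9.65 and 21.5 CPM in aOX40 replicates 1 to 3. In IgG replicates 2 to 6 it was at 2.89, 4.30, 2.38, 3.56 and 5.38 CPM. Every aOX40 library lay above every IgG library, and the log2 fold change was 2.02 (SE 0.38, adjusted p = 0.0191, edgeR), or 4.04-fold. Without aOX40 replicate 2 or 3 the call was lost, and over the 8 analyses with a library left out the log2 fold change ran from 1.68 to 2.26 with an adjusted p of 0.0272 to 0.0772. Tnfsf9 lies at chr17:57105325-57107757, and 192 bases of its exons overlap Gm11110 on the other strand, which was at 0.673 CPM or less in each library.

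Tnf and Ltb sit beside each other on chromosome 17, with Lta, in the class III region of the MHC. Tnf, the founding cytokine of the family, was at 507, 285 and 419 CPM in aOX40. In IgG replicates 2 to 6 it was at 26.4, 194, 124, 151 and 188 CPM. The groups did not overlap, and IgG replicate 2 lay far below the other IgG libraries. The log2 fold change was 1.56 (SE 0.46, adjusted p = 0.0705, edgeR), which did not pass. Of the 8 analyses with a library left out, only that without IgG replicate 2 called Tnf (adjusted p = 0.0271, edgeR, log2 fold change 1.30). The adjusted p reached 0.172 in the others. Tnf was called in 4 of all 18 alternatives.

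Ltb encodes lymphotoxin beta, the membrane anchor of the lymphotoxin trimer, and was at 306, 188 and 189 CPM in aOX40. In IgG replicates 2 to 6 it was at 42.4, 129, 109, 113 and 164 CPM, again lowest in replicate 2, and the groups did not overlap (log2 fold change 1.03, SE 0.35, adjusted p = 0.103, edgeR). Lta, the soluble partner, was near 0 in IgG replicates 3 and 5 and at 1.39 to 3.28 CPM in the other libraries, with a log2 fold change of 0.00 (SE 0.81). The counts of Tnf relative to Ltb within a library were 1.66, 1.51 and 2.22 in aOX40 and 0.623, 1.51, 1.14, 1.34 and 1.15 in IgG, so aOX40 replicate 2 and IgG replicate 3 nearly met. Scaling between libraries does not enter this ratio.

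The monocyte and macrophage markers were also higher in aOX40: their sum was 57.7, 77.2 and 101 CPM in aOX40 and 8.35, 27.0, 34.6, 38.3 and 24.7 CPM in IgG replicates 2 to 6. Within the groups the order differed. IgG replicate 2 had the least Tnf and Ltb and the lowest marker sum, whereas aOX40 replicate 1 had the most Tnf and Ltb and the lowest marker sum of the aOX40 libraries. Adgre1, the F4/80 antigen, rose (log2 fold change 1.81, adjusted p = 0.0248, edgeR). The part of such cells in the values of Tnf, Ltb, Tnfsf9 and Tnfrsf9 was not tested. In bulk libraries, fewer cells of a type and less RNA per cell cannot be told apart.

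Tnfsf14, which encodes LIGHT, a ligand of HVEM and of the lymphotoxin beta receptor, was at 86.5, 66.8 and 78.2 CPM in aOX40. In IgG replicates 2 to 6 it was at 185, 82.3, 124, 81.1 and 106 CPM, and the groups overlapped (log2 fold change -0.58, SE 0.29, adjusted p = 0.241, edgeR). Tnfsf13b, the B cell survival factor BAFF, was at 5.70 to 9.99 CPM in aOX40 and 6.41 to 14.9 CPM in IgG (adjusted p = 0.665). These ligands are known products of neutrophils, and neither passed.

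Fasl, the death ligand of cytotoxic lymphocytes, was at 0, 0 and 0.599 CPM in aOX40 and at 3.55, 1.35, 0.670, 2.07 and 3.24 CPM in IgG replicates 2 to 6. The groups did not overlap, though aOX40 replicate 3 and IgG replicate 4 lay close together. The fitted log2 fold change was -3.45 (SE 1.06, adjusted p = 0.0674, edgeR), and its size rests on libraries at 0. With a stricter filter on low counts the adjusted p was 0.0473 (edgeR), the only 1 of the 18 alternatives that called Fasl. Over the 18 the adjusted p ran up to 0.373, with edgeR's default fit. Tnfsf10, which encodes TRAIL, was at 0 in 4 libraries and did not exceed 1.25 CPM.

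**Figure D2:**
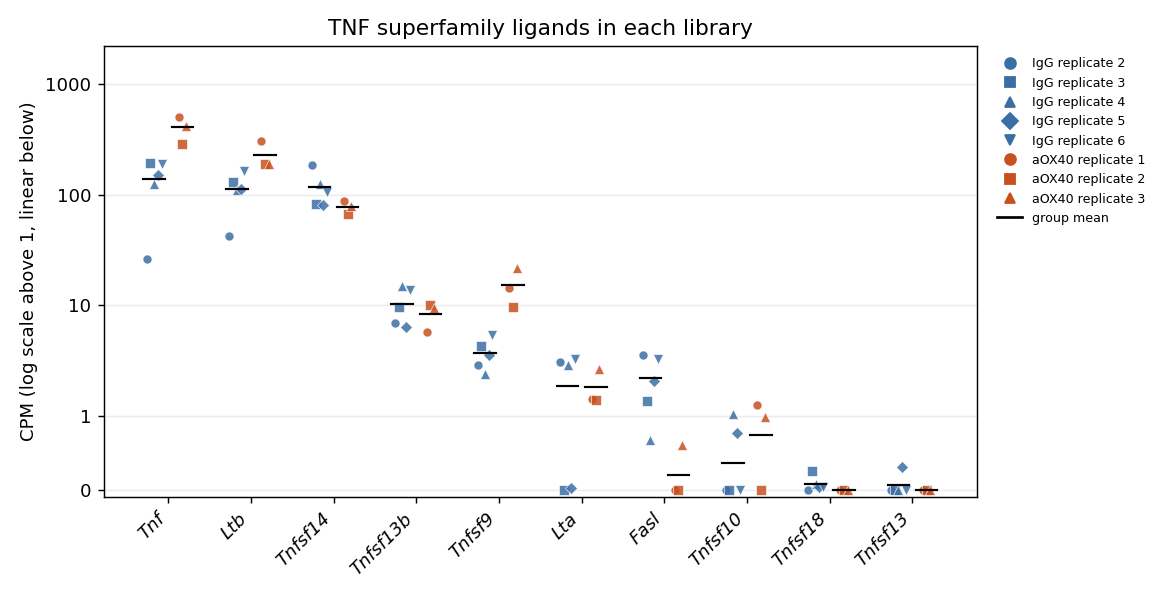
CPM of the 10 ligand genes in each library, on an axis that is logarithmic above 1 and linear below, with black lines for group means. The aOX40 libraries of Tnf, Ltb and Tnfsf9 lie above all IgG libraries, and IgG replicate 2 is the lowest point of Tnf and Ltb.

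Of the 4 death-domain receptors, 1 fell and 3 did not pass, where 3.0% of all tested genes were called lower. Tnfrsf1a was at 297, 283 and 476 CPM in aOX40 and at 608, 738, 1245, 525 and 1005 CPM in IgG replicates 2 to 6. All aOX40 libraries lay below all IgG libraries, and aOX40 replicate 3 and IgG replicate 5 lay closest to each other. The log2 fold change was -1.23 (SE 0.32, adjusted p = 0.0486, edgeR), 2.34-fold higher in IgG. Of the 8 analyses with a library left out, only that without IgG replicate 5 kept the call (0.0432), and the adjusted p reached 0.214 in the others, with a log2 fold change between -1.50 and -1.03.

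Tnfrsf1b, the gene of the other TNF receptor, TNFR2, which lacks a death domain and binds TRAF2, did not pass. It was at 540, 628 and 1058 CPM in aOX40 and 511, 587, 487, 500 and 636 CPM in the IgG libraries (log2 fold change 0.45, SE 0.23, adjusted p = 0.265, edgeR). The counts of Tnfrsf1a relative to Tnfrsf1b within a library, which no scaling between libraries touches, were 0.551, 0.452 and 0.450 in aOX40. In IgG replicates 2 to 6 they were 1.19, 1.26, 2.55, 1.05 and 1.58, so TNFR1 counts exceeded TNFR2 counts in all 5 IgG libraries and in 0 of the 3 aOX40 libraries. This pair was chosen after its values were seen, and the ratio is given without a test.

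Fas, the receptor of Fas ligand, was at 388, 253 and 304 CPM in aOX40 and 177, 228, 220, 239 and 413 CPM in IgG, with overlap (log2 fold change 0.30, SE 0.27, adjusted p = 0.534, edgeR). Tnfrsf21, or DR6, was at 6.15 to 22.9 CPM in aOX40 and 5.88 to 21.1 CPM in IgG. Tnfrsf10b, the mouse TRAIL receptor with a death domain, was at 0.229 to 2.91 CPM and 0.733 to 4.32 CPM. Neither passed (adjusted p = 0.939 and 0.515).

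The decoy-type receptor genes Tnfrsf22, Tnfrsf23 and Tnfrsf26 lie in a row on chromosome 7, on the minus strand. Tnfrsf23 was at 374, 266 and 228 CPM in aOX40 and at 870, 516, 411, 599 and 588 CPM in IgG replicates 2 to 6. The groups did not overlap, and edgeR gave an adjusted p of 0.0484 for a log2 difference of -1.05 (SE 0.27). Only the analysis without IgG replicate 4 kept the call when a library was left out (0.0415), and the adjusted p reached 0.207.

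Tnfrsf26 was at 217, 223 and 181 CPM in aOX40 and at 627, 341, 341, 304 and 334 CPM in IgG. The groups did not overlap here either, and the log2 difference of -0.91 (SE 0.26) did not pass (adjusted p = 0.0663, edgeR). Tnfrsf22 was at 16.9, 17.4 and 13.7 CPM in aOX40 and 16.1, 19.6, 8.80, 27.4 and 18.8 CPM in IgG, with overlap (log2 fold change -0.19, SE 0.33, adjusted p = 0.771). With library totals alone as scaling, Tnfrsf22 was at 0.11 and Tnfrsf23 and Tnfrsf26 were at -0.75 and -0.60 on the log2 scale, and 0 of the 3 passed.

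Similar or overlapping sequence bears on how reads of these genes are counted. The longest transcript of Tnfrsf23 matches Tnfrsf22 at 91.2% identity over 64.8% of its length, and values of Tnfrsf22, Tnfrsf23 and Tnfrsf26 carried fractions in 8, 7 and 8 libraries, as did values of 16 of the 34 members in at least 1 library. No such match was found for Tnfrsf26. The exons of Tnfrsf23 and Tnfrsf26 overlap E230032D23Rik, on the other strand, by 164 and 107 bases. That gene was lower as well, at 17.7 to 41.8 CPM in aOX40 against 70.1 to 147 CPM in IgG (adjusted p = 0.0214, edgeR), a log2 difference of -1.82 (SE 0.36). Its part in the values of Tnfrsf23 and Tnfrsf26 was not tested. The dendritic cell marker sum, mostly Itgax, was lower in aOX40 too, although Itgax itself did not pass (adjusted p = 0.0697, edgeR). The fibroblast marker sum, mostly Col1a1 in IgG, had a lower mean in aOX40, with groups that overlapped. The part of these 2 sums in the lower Tnfrsf1a and Tnfrsf23 was not tested either.

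**Figure D3:**
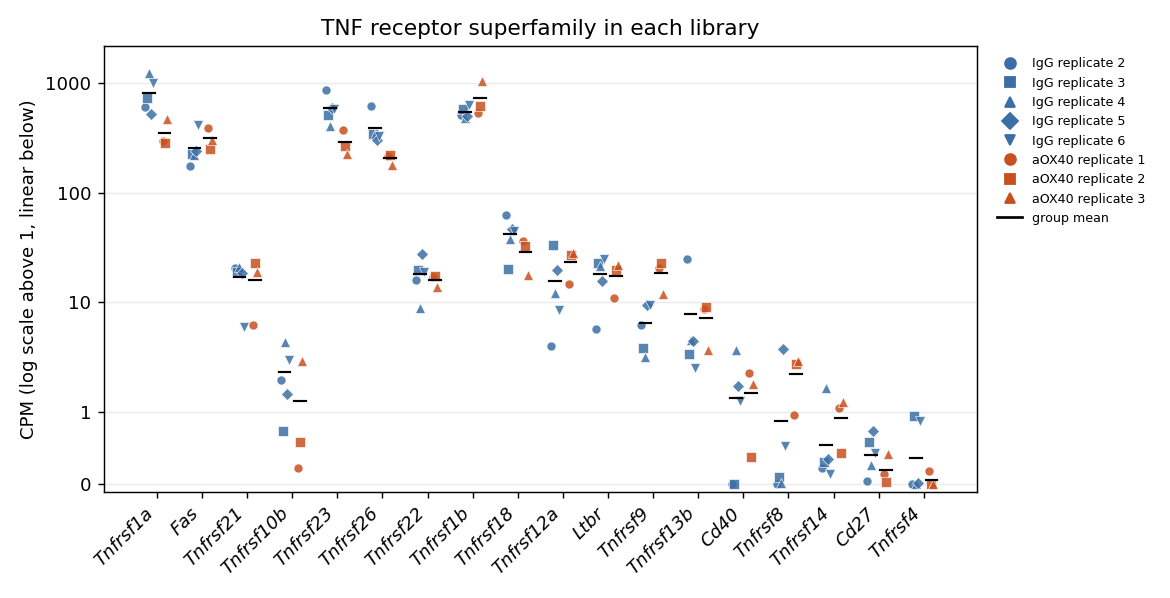
CPM of the 18 receptor genes in each library, on an axis that is logarithmic above 1 and linear below, with black lines for group means. Tnfrsf1a, Tnfrsf23 and Tnfrsf26 lie lower in all aOX40 libraries, Tnfrsf9 lies higher, and Tnfrsf4 is among the lowest.

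Of the 11 TRAF-binding receptors, 1 rose and 10 did not pass, where 2.64% of all tested genes were called higher. Tnfrsf9, an inducible costimulatory receptor, was at 20.4, 22.9 and 11.99 CPM in aOX40 and at 6.16, 3.78, 3.18, 9.43 and 9.46 CPM in IgG replicates 2 to 6. The groups did not overlap, and the log2 fold change was 1.51 (SE 0.39, adjusted p = 0.0467, edgeR), or 2.85-fold. The call was lost whichever library was left out, with an adjusted p of 0.0516 to 0.209 and a log2 fold change of 1.33 to 1.75. Its values were whole within 0.01 counts in all libraries. Its counts relative to those of its ligand gene did not separate the groups: Tnfsf9 over Tnfrsf9 ran from 0.421 to 1.79 in aOX40 and from 0.377 to 1.14 in IgG.

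Tnfrsf4, the gene of OX40 itself, was near zero. The table listed 14, 0 and 0 counts in aOX40 replicates 1 to 3 and 0, 49, 0, 1 and 49 counts in IgG replicates 2 to 6, which is 0.946 CPM at most. With 4 of 8 libraries at 0, the fitted log2 difference of -2.62 (SE 1.82) did not pass (adjusted p = 0.394, edgeR). Tnfrsf18, which encodes GITR and is the neighbour of Tnfrsf4 on chromosome 4, was at 36.3, 32.8 and 17.7 CPM in aOX40 and 62.0, 19.9, 38.1, 46.3 and 44.4 CPM in the IgG libraries (log2 fold change -0.54, SE 0.36, adjusted p = 0.377). Its exons share 414 bases with Gm16008 on the other strand, which was at 0.367 CPM or less.

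The other receptors of this kind overlapped between the groups. Tnfrsf12a, or Fn14, the receptor of TWEAK, was at 14.6, 26.9 and 28.2 CPM in aOX40 and ranged from 3.98 to 33.4 CPM in the IgG libraries (log2 fold change 0.58, SE 0.51, adjusted p = 0.519, edgeR). Ltbr, the lymphotoxin beta receptor, was at 10.9 to 21.7 and 5.68 to 24.7 CPM, and Tnfrsf13b, the BAFF and APRIL receptor TACI, at 3.62 to 9.07 and 2.48 to 24.6 CPM. Tnfrsf8, or CD30, was at 0.955, 2.70 and 2.92 CPM in aOX40 and at 0, 0.0965, 0.0186, 3.72 and 0.531 CPM in IgG. Its log2 fold change was 1.21 (SE 0.92, adjusted p = 0.447), and 3.69 with an adjusted p of 0.0446 without IgG replicate 5. Cd40, Tnfrsf14 (HVEM) and Cd27 did not exceed 3.63, 1.66 and 0.734 CPM in any library.

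None of the 6 TRAF genes was called by edgeR or by DESeq2, and 0 of the 6 had groups without overlap. Over all genes tested, edgeR called 5.65% and DESeq2 12.3%, and 16% did not overlap. With 6 genes, a count of 0 at these shares does not set the TRAFs apart. Traf1, an NF-kB target that joins TRAF2 complexes, was at 235, 153 and 260 CPM in aOX40 and at 77.1, 188, 66.2, 221 and 299 CPM in IgG replicates 2 to 6, so the IgG libraries spanned all aOX40 values (log2 fold change 0.34, SE 0.44, adjusted p = 0.678, edgeR). Traf2, the adaptor of TNFR2 and of the TNFR1 complex, was at 14.4 to 24.0 CPM in aOX40 and 11.1 to 25.2 CPM in IgG. Traf3, a brake on non-canonical NF-kB, was at 20.8 to 23.8 and 19.1 to 34.4 CPM. Traf6, which also serves Toll-like and interleukin-1 receptors, was at 44.5 to 64.6 and 36.8 to 91.8 CPM. The fitted log2 fold changes of these 3 genes were -0.09 (SE 0.31), -0.21 (SE 0.25) and 0.04 (SE 0.32), and each changed sign in at least 2 alternative analyses. Traf4 was at 3.63 to 8.66 CPM and 0.0163 to 9.25 CPM, and Traf5 at 0.0785 to 0.175 CPM and 0 to 2.43 CPM.

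Levels of different genes were compared per kb of exon length. In IgG the highest levels were those of Tnfrsf1a, at 318 ± 115 CPM per kb (SD, n = 5), and then of Tnfrsf23, Tnfrsf1b, Fas and Tnfrsf26, at 151 ± 43.0, 143 ± 16.8, 124 ± 44.1 and 121 ± 41.5 CPM per kb. The ranges of each neighbouring pair in this order overlapped. Within every IgG library Tnfrsf1a lay above Tnfrsf23, whereas the order of the other neighbouring pairs differed between the IgG libraries. Tnf was sixth in IgG, at 83.4 ± 41.5 CPM per kb. In aOX40 the order was led by Tnf, at 246 ± 68.1 CPM per kb (SD, n = 3), followed by Tnfrsf1b at 194 ± 72.6, Fas at 153 ± 33.1, Ltb at 150 ± 44.5 and Tnfrsf1a at 136 ± 41.5 CPM per kb. The libraries of Tnf and Tnfrsf1b overlapped, as did those of the other neighbours in that order. Between IgG and aOX40, Tnfrsf1a moved from place 1 to place 5 and Tnf from place 6 to place 1.

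**Figure D4:**
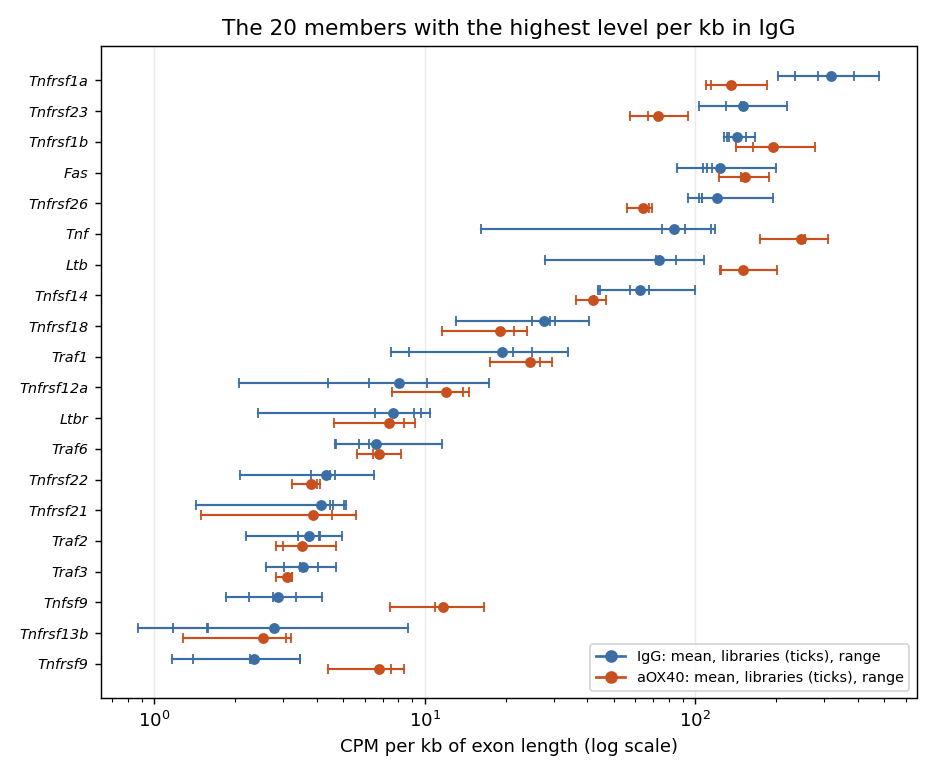
CPM per kb of exon length on a log axis for the 20 members with the highest level in IgG, with the mean (point), each library (tick) and the range (line) of both groups. Tnfrsf1a leads in IgG at 318 and Tnf leads in aOX40 at 246, and the lines of most neighbours overlap.

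The other genes of TNF receptor signalling were taken from 7 lists, which hold 70 genes, with 62 in the table and 60 tested. Of these, 3 were called higher and 1 lower by edgeR, a share of 6.67% that lies near the background of 5.65%. Their median log2 fold change was 0.33, against 0.05 over all genes. Among 12 kinases, Ikbke, which encodes IKK-epsilon, rose from 13.0 ± 5.48 CPM (SD, n = 5) to 68.0 ± 13.8 CPM (SD, n = 3), and its adjusted p was 0.00996 (edgeR) at a log2 fold change of 2.38 (SE 0.35). The kinase subunits of the classical IKK complex, Chuk and Ikbkb, had log2 fold changes of -0.12 and -0.25 and did not pass.

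Among 10 genes that restrain TNF receptor signalling, Tnip1, a partner of A20, rose from 41.5 ± 8.49 to 85.1 ± 22.8 CPM (adjusted p = 0.0369, edgeR, at a log2 difference of 1.03, SE 0.24), and 9 did not pass. Among 7 genes of the death arm, Bid rose to 91.7 ± 12.8 CPM in aOX40 from a mean of 44.8 CPM in IgG (adjusted p = 0.0325 at a log2 difference of 1.03, SE 0.23), and 6 did not pass. Among 5 tested genes of ligand processing, Furin, a protease that activates several precursors, fell from 209 ± 47.1 to 82.3 ± 12.3 CPM (adjusted p = 0.0149 at a log2 difference of -1.35, SE 0.23), while Adam17, the protease that releases TNF from the cell surface, was at 44.0 ± 16.4 CPM in IgG and 77.8 ± 15.2 CPM in aOX40 (adjusted p = 0.161).

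Of 11 NF-kB subunits and inhibitors, 13 receptor adaptors and ubiquitin ligases and 2 further superfamily genes (Relt and Traf7), 0 were called by edgeR. DESeq2 called Nfkb2 and Relt, as did edgeR with the stricter filter or with library totals alone, and neither gene's groups overlapped (adjusted p = 0.0571 and 0.0619, edgeR); both were named after their values were seen. The medians were 0.43, 0.18 and 0.58 on the log2 scale. Without aOX40 replicate 2 or without aOX40 replicate 3, Ikbke, Tnip1, Bid and Furin were not called either, and Tnip1 was called in only 2 of the 8 analyses with a library left out. Ikbke and Furin were called in the other 6.

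**Figure D5:**
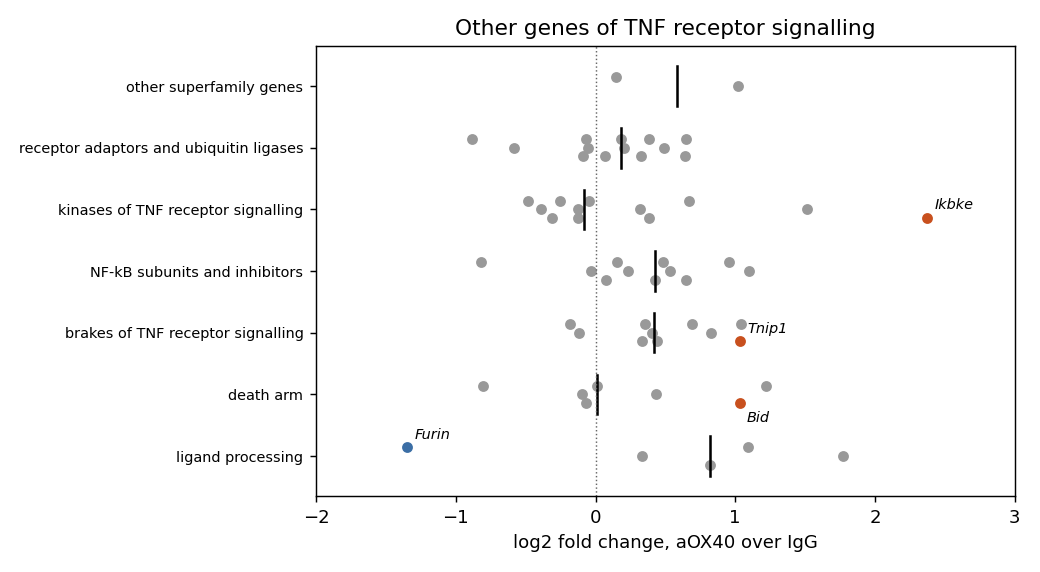
Log2 fold change of aOX40 over IgG for the 60 tested genes of the 7 signalling lists, 1 point per gene, with black lines for list medians. Named and coloured points passed the test (Ikbke, Tnip1 and Bid higher, Furin lower), and the other 56 points are grey.

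Some members were near zero. Tnfsf13, which encodes APRIL, had 18.9 counts in IgG replicate 5 and 0 in the other 7 libraries, and Tnfsf18, the ligand of GITR, had 21 counts over all libraries; both failed the filter and were not tested. Another 5 members, Tnfrsf4, Cd27, Tnfrsf14, Tnfsf10 and Traf5, stayed below a mean of 1 CPM in both groups. The table used here has no row for Tnfsf4, the gene of the OX40 ligand, or for Cd70, Tnfsf8, Tnfsf11, Tnfsf12, Tnfsf15, Tnfrsf11a, Tnfrsf11b, Tnfrsf13c, Tnfrsf17, Tnfrsf19 and Tnfrsf25, among 14 symbols of the rule in the reference annotation that were not analysed here. No gene in the table had fewer than 10 counts when the 8 libraries were added.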

How the data were processed

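RNA sequencing of mouse neutrophils was analysed from 8 libraries, 3 labelled aOX40 and 5 labelled IgG, grouped by their titles. The authors deposited estimated counts, 1 row per symbol and without scaling. The submitters' processing notes name STAR 2.6.0, Subread, featureCounts 1.5.1 and build mm10. Of all values 63.4% were whole within 0.01. Which annotation, strand setting or step made the others is not stated.

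The estimated counts were rounded, filtered with filterByExpr, scaled with TMM factors and tested in R 4.3.3 by the quasi-likelihood method of edgeR 4.0.16 on a model of group alone, with Benjamini-Hochberg adjustment over the 13278 genes tested. The default form of glmQLFit was run first and called 320 genes. The form with legacy = FALSE, which gives the 750 calls of an earlier analysis of these data, was adopted after that result was seen, and the default is kept as an added alternative. Standard errors came from the F statistic. The procedure was tested on simulated data. Levels are CPM, a gene's share of its library's TMM-scaled total. For single values such as library totals, all 56 splits were enumerated in an exact, two-sided permutation test.

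The members, roles and lists were chosen with earlier results of these data known. The members given in most detail were Tnfrsf4, every member with an adjusted p below 0.05, the 12 others with the highest CPM and the 6 others with the largest fold change at a mean of at least 1 CPM in a group. Positions and exon lengths came from GENCODE M21, promoters from RefSeq, and transcript matches from BLAST+ 2.17.0. The alternatives were other scalings and filters, DESeq2 1.42.0, limma 3.58.1 (voom), omission of single libraries and a block for replicate number.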

Additional observations from a re-analysis of the deposited data

Results flagged for a closer look

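In 8 of the 32 members checked, 1 of the 5 IgG libraries lay far from the other 4 by Dixon's criterion. Chance meets it in about 1 in 20 groups of normally distributed values, whereas CPM here were not transformed and some lay near 0. Only members were checked, and how often other genes meet the criterion was not counted. The 8 therefore do not show more outliers in this family than elsewhere. In IgG replicate 2, Tnfrsf26 was at 627 CPM against 304 to 341 in the other IgG libraries, Traf6 at 91.8 against 36.8 to 49.0, and Tnfrsf13b at 24.6 against 2.48 to 4.50. In IgG replicate 6, Fas was at 413 CPM against 177 to 239, Traf5 at 2.43 against 0 to 0.598, and Tnfrsf21 at 5.88 against 18.3 to 21.1. Tnfrsf8 was at 3.72 CPM in IgG replicate 5 against 0 to 0.531, and Tnfrsf14 at 1.66 CPM in IgG replicate 4 against 0.142 to 0.343. The aOX40 group, with 3 libraries, is too small for this check.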

How the results depend on the processing

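The log2 fold changes of Tnfsf9, Tnfrsf9, Tnfrsf1a and Tnfrsf23 kept their direction in all 18 alternatives, while the counts of calls moved. In place of 750 genes, 4 members and 4 signalling genes, 452, 1 and 2 were called with no filter, and 320, 1 and 2 with edgeR's default fit. DESeq2 called 1629 genes (12.3% of those it tested) and 8 signalling genes. The stricter filter called 1029 of 9923 genes, 7 of 27 members and 7 signalling genes. Library totals alone called 1120 of 13278 genes and 8 signalling genes. With limma voom, 5.45% of genes and 2 members were called. The robust fit called 1 member, with 320 genes higher and 380 lower. With a library left out, the ranges were 0 to 589 genes, 0 to 3 members and 0 to 4 signalling genes. The 0 came without aOX40 replicate 2 (2230 genes at an unadjusted p below 0.05, edgeR), and 59 genes were called without aOX40 replicate 3. With the replicate number as a block, 0 genes, 0 members and 0 signalling genes were called (2594 genes unadjusted). Only numbers 2 and 3 occur in both groups, so this fit compared the groups through those libraries alone. It could hardly call a gene: the adjusted p of Tnfsf9 was 0.238 (edgeR). The deviations of libraries with the same number, 2 or 3, correlated at 0.02 and 0.05. Those of libraries with unlike numbers correlated at -0.005 and -0.04. So few pairs cannot show whether the numbers pair the libraries. Traf6 changed sign to -0.013 with upper quartile factors and -0.17 with the block, and ran from -0.12 to 0.34 with a library left out. Traf3 was at 0.095 with library totals alone and 0.11 with the block. Traf2 was at 0.20 with library totals alone and ran from -0.35 to 0.055 with a library left out. Tnfrsf10b was at 0.26 with the block. The causes were not tested. Library totals alone moved the median of all genes from 0.05 to 0.35 and the share of calls that were higher from 46.8% to 78.0%. Members called there were Ltb, Tnf, Tnfrsf9 and Tnfsf9, all higher, and Tnfrsf1a and Tnfrsf23 did not pass. The default and robust fits were added after the data were seen.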
